A study of Mus musculus with 6 samples.

Results

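Glutathione transferases are the enzymes that attach the tripeptide glutathione to reactive molecules, and 10 of their genes are described here in mouse embryonic stem cells kept alive by a mouse or a coelacanth POUV transcription factor. The genes were Gstt1, Gstt2 and Gstt3 (theta class), Gsta4 (alpha class), Gstm1 and Gstm5 (mu class), Gsto1 (omega class), Gstp1 (pi class), and Mgst1 and Mgst3 (microsomal). They were taken by symbol, as 10 of the 20972 genes named on the array and as 14 of its 55681 non-control probes. The list was drawn up because Gstt1 was low in both coelacanth-rescued groups, and the question was whether its relatives follow it. The values of Gstt1 against mouse Oct4 therefore chose the list and are given as a description with no test. All 10 genes entered the fit over 14595 genes, although Mgst1 passed the filter on dim signals only through the mouse Oct4 clones.

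ZHBTc4 is a mouse embryonic stem cell line whose own Oct4 genes are disrupted and whose Oct4 transgene is shut off by tetracycline. Every group carried that background, and per the labels every sample was grown with tetracycline, puromycin, leukaemia inhibitory factor and serum. The mOct4 group was rescued with mouse Oct4 (clones 1 and 2), the LcPOU5F1 group with POU5F1 of the coelacanth (clones 4 and 5), and the LcPOU5F3 group with its paralog POU5F3 (clones 1 and 2). The rescue gene was electroporated on a linearised plasmid named pCAG-IP-POUV, puromycin was added on day 2, and colonies were picked on day 9. Each sample is therefore 1 expanded colony on 1 array, and the spread behind each p-value is that between colonies picked apart. Parental or drug-free cells were not analysed here.

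Cytosolic glutathione transferases are soluble dimers sorted into classes by sequence, whereas the microsomal enzymes are membrane proteins of a separate superfamily. They use glutathione made by glutamate-cysteine ligase and glutathione synthetase, and their products leave the cell through ABCC exporters. Several of the genes are textbook targets of NRF2 (Nfe2l2), a transcription factor that KEAP1 holds back and that binds antioxidant response elements with small MAF partners.

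Promoters of 8 of the 10 genes were matched by symbol in RefSeq (assembly GRCm38.p6), as 11 windows of 300 bases that run from 250 before to 50 after a transcript start. Gstt2 and Gsta4 were not matched. The 250 bases before the start are shown for Gstt1, for its neighbour Gstt3, whose groups overlapped, and for Gsto1, which had the largest called difference of the 10 between the coelacanth groups, with every CpG in capitals. Gstt1 lies at chr10:75797732-75797981 on the minus strand, Gstt3 at chr10:75781415-75781664 on the minus strand, and Gsto1 at chr19:47854723-47854972 on the plus strand.
Gstt1: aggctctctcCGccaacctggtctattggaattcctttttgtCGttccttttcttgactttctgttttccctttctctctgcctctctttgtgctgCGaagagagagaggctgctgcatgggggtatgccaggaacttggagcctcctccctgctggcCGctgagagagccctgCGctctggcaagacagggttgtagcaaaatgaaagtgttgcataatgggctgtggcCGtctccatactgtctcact
Gstt3: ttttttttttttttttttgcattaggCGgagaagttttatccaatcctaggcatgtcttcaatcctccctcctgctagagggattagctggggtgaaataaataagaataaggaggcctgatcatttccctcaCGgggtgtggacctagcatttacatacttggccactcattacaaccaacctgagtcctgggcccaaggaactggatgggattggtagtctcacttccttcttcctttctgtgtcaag
Gsto1: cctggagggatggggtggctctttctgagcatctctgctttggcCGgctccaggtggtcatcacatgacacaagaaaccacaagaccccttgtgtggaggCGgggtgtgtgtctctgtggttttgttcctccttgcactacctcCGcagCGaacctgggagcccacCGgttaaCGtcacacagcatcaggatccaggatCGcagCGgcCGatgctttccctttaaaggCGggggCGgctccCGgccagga
These stretches hold 6 CpG in Gstt1, 2 in Gstt3 and 12 in Gsto1, where the median over 32851 windows was 6 and the quartiles were 2 and 16. The octamer ATGCAAAT, the classical motif of POU proteins, was searched on both strands of the 300-base windows and was found in 0 of the 11 windows, against 1.74% of all windows. The core of the antioxidant response element was searched as TGACNNNGC or TGAGNNNGC on both strands. It was found in 4 of the 11 windows (in Gstt1, Gstm5, Gstp1 and Mgst1), against 27.8% of all windows. In Gstt1 it reads TGAGAGAGC and in Gstp1 one copy reads TGAGTCAGC. Such a match is a description of letters and no evidence of binding.

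Levels are log2 of the processed signal relative to each array's 75th percentile, so 0 is the level of that percentile. Differences were tested with limma across all genes, and a gene is said to rise, fall or pass where its Benjamini-Hochberg adjusted p was under 0.05. Between 44.3% and 58.5% of spots were well above background on an array, and 0 spots were saturated. Slide 1 held 5 arrays and slide 2 only mOct4 clone 2. Centring each array on its median in place of its 75th percentile shifted the median gene by -0.37 in LcPOU5F1 against mOct4, by 0.04 in LcPOU5F3 against mOct4 and by -0.41 between the coelacanth groups. The clones of LcPOU5F3 lay farther apart than those of the other groups, with a median gap over all genes of 0.33 on the log2 scale against 0.15 for mOct4 and 0.21 for LcPOU5F1. The label of embryonic stem cells was checked against 10 naive pluripotency markers, all well above background on all 6 arrays. Their summed signal, in multiples of the 75th percentile, was 476 to 506 in mOct4, 406 to 517 in LcPOU5F1 and 86.2 to 148 in LcPOU5F3. In LcPOU5F3, 9 of the 10 fell against mOct4, where 11.8% of all genes fell and 11.8% rose. The summed signal of 11 trophectoderm markers was 35.5 to 36.0, 23.6 to 32.3 and 523 to 546 in the same order, and in LcPOU5F3 against mOct4 7 of 10 tested rose, Krt7 among them on a probe kept through that group alone, while Eomes fell (-2.02, adjusted p = 0.024). Elf5 was not well above background on any of the 6 arrays. The 10 mesenchymal markers summed to 25.4 to 30.1, 15.7 to 35.5 and 59.3 to 140 (in LcPOU5F1 Col1a1, Timp3, Thbs1 and Pdgfrb were not well above background). In LcPOU5F3 Col1a1 was not well above background in either clone, nor Pdgfrb in clone 1. Against mOct4, 5 of the 10 rose in LcPOU5F3 (Tagln, Timp3, Thbs1, Thy1 and Acta2), while 4 had a log2 fold change below 0 (Col1a1, Col1a2, Vim and Pdgfrb). The 10 primitive endoderm markers summed to 24.5 to 25, 33.4 to 47.8 and 13.8 to 18.2, most of it from Lama1, with 4 to 8 of the 10 well above background on an array. Of the 6 tested, 4 had a log2 fold change above 0 in LcPOU5F3 against mOct4 (median 0.42), Amn fell (-1.57) and Dab2 was at least 20.4-fold higher, while in LcPOU5F1 Cubn was at least 5.69-fold higher. The probes of Dab2 and Cubn were kept through 1 group alone. These cell type markers move with every LcPOU5F3 difference given here, and their part in those differences was not tested.

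**Figure D1:**
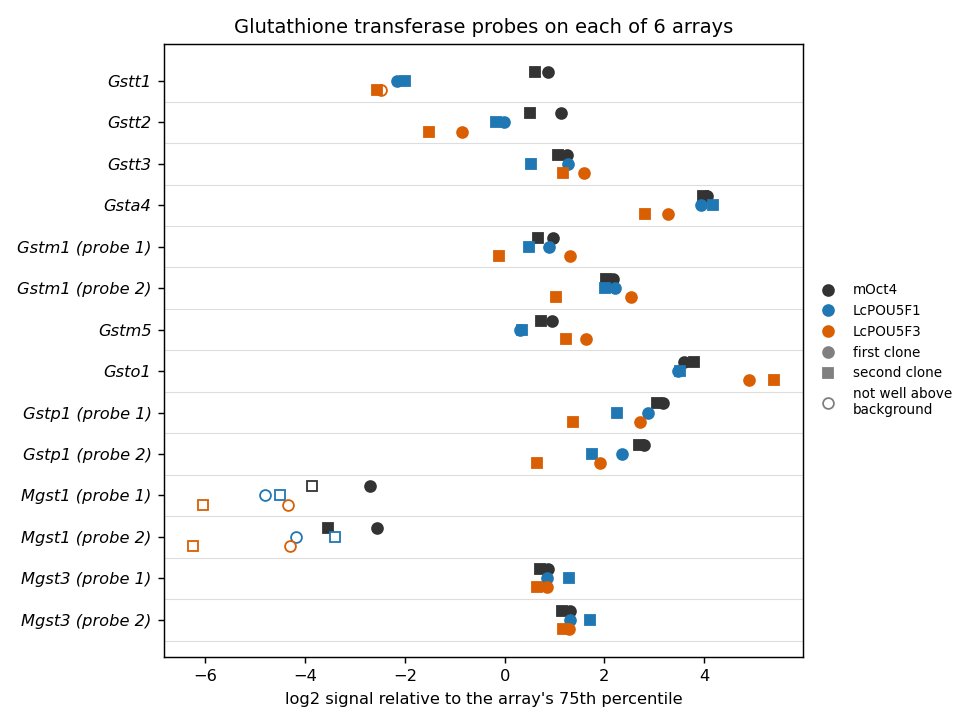
Level of each of the 14 probes on each array (x axis: log2 signal relative to the array's 75th percentile; black mOct4, blue LcPOU5F1, orange LcPOU5F3; circles first clone, squares second clone; open symbols not well above background). The 4 coelacanth points of Gstt1 lie between -2.55 and -1.99, below both mOct4 points at 0.62 and 0.87, whereas those of Gstt3 overlap the mOct4 points.

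Gstt1, a theta-class enzyme known for conjugating small halogenated molecules, was well above background on 5 of the 6 arrays, the exception being LcPOU5F3 clone 1. It stood at 0.87 and 0.62 in mOct4 clones 1 and 2, at -2.16 and -1.99 in LcPOU5F1 clones 4 and 5, and at -2.47 and -2.55 in LcPOU5F3 clones 1 and 2. All 4 coelacanth clones were far below both mOct4 clones. The mean was 7.08-fold lower in LcPOU5F1 (log2 fold change -2.82 ± 0.17 SE) and 9.57-fold lower in LcPOU5F3 (-3.26 ± 0.17), the latter with 1 of its 2 arrays not well above background. With normexp background correction the same differences were -1.98 and -2.30. By the smaller of its falls in the coelacanth groups, Gstt1 ranked 24 among the 14595 genes, a rank by the values that chose the list. In bulk RNA, fewer cells that express a gene and less RNA per cell cannot be told apart.

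Gstt2, the theta-class enzyme noted for activity on sulfate esters and organic peroxides, was the relative whose profile came closest to that of Gstt1. Its levels were 1.12 and 0.50 in mOct4, -0.0029 and -0.17 in LcPOU5F1, and -0.86 and -1.51 in LcPOU5F3. The groups did not overlap, with mOct4 highest, LcPOU5F1 between and LcPOU5F3 lowest. Gstt2 fell 4.00-fold in LcPOU5F3 against mOct4 (-2.0 ± 0.31, limma, Benjamini-Hochberg adjusted p = 0.016). Its log2 fold change of -0.90 ± 0.31 in LcPOU5F1 did not pass (adjusted p = 0.29). Between the coelacanth groups the difference was 1.1 ± 0.31, with a 95% interval from 0.30 to 1.90 before adjustment, and it missed the threshold after it (adjusted p = 0.065).

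Gstt3, the theta-class gene next to Gstt1 on chromosome 10, stood at 1.26 and 1.08 in mOct4, 1.27 and 0.52 in LcPOU5F1, and 1.59 and 1.17 in LcPOU5F3. Every pair of groups overlapped. Its log2 fold changes were -0.27 ± 0.30 in LcPOU5F1 and 0.21 ± 0.30 in LcPOU5F3 against mOct4 (adjusted p = 0.68 and 0.64), and -0.48 ± 0.30 between the coelacanth groups (adjusted p = 0.29). The 95% intervals against mOct4 ran from -1.04 to 0.50 and from -0.56 to 0.98. Gstt1 stood at -2.82 and -3.26, the values that chose the list.

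Gsta4, the alpha-class enzyme that clears the lipid peroxidation product hydroxynonenal, was 4.05 and 3.98 in mOct4, 3.93 and 4.18 in LcPOU5F1, and 3.28 and 2.82 in LcPOU5F3. Both LcPOU5F3 clones stood below the other 4. Gsta4 fell 1.95-fold there against mOct4 (-0.97 ± 0.21, adjusted p = 0.033) and was 2.01-fold higher in LcPOU5F1 than in LcPOU5F3 (1.00 ± 0.21, adjusted p = 0.033). Its difference between LcPOU5F1 and mOct4 was 0.04 ± 0.21 (adjusted p = 0.94), with a 95% interval from -0.50 to 0.58, and was -0.33 with median centring. Both calls of Gsta4 are close to the threshold: with every kept probe in the fit the adjusted p was 0.051 for each. With median centring the differences were -0.93 (adjusted p = 0.17) and 0.60 (adjusted p = 0.50).

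Gstm1, a major mu-class enzyme of the liver, has 2 probes. The brighter read 2.17 and 2.04 in mOct4, 2.21 and 2.01 in LcPOU5F1, and 2.54 and 1.02 in LcPOU5F3. One LcPOU5F3 clone was the highest of the 6 samples and the other the lowest. The differences against mOct4 were 0.0045 ± 0.50 and -0.32 ± 0.50 (adjusted p = 0.996 and 0.67). The second probe gave -0.14 and -0.22, and its LcPOU5F3 clones were likewise apart, at 1.32 and -0.11.

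Gstm5, a mu-class gene best known from brain and testis, was 0.94 and 0.73 in mOct4, 0.32 and 0.34 in LcPOU5F1, and 1.64 and 1.24 in LcPOU5F3. The groups did not overlap, and here LcPOU5F1 was the lowest and LcPOU5F3 the highest. Against mOct4 the differences were -0.51 ± 0.19 in LcPOU5F1 (adjusted p = 0.31) and 0.60 ± 0.19 in LcPOU5F3 (adjusted p = 0.079), neither past the threshold. Gstm5 was 2.16-fold lower in LcPOU5F1 than in LcPOU5F3 (-1.11 ± 0.19, adjusted p = 0.023).

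Gsto1, the omega-class enzyme with an active-site cysteine that reduces dehydroascorbate and glutathionylated thiols, was 3.59 and 3.80 in mOct4, 3.49 and 3.52 in LcPOU5F1, and 4.90 and 5.40 in LcPOU5F3. The LcPOU5F3 clones stood above all others. Gsto1 rose 2.74-fold in LcPOU5F3 against mOct4 (1.46 ± 0.21, adjusted p = 0.014) and was 3.13-fold lower in LcPOU5F1 than in LcPOU5F3 (-1.65 ± 0.21, adjusted p = 0.012). LcPOU5F1 and mOct4 differed by -0.19 ± 0.21 (adjusted p = 0.67, 95% interval from -0.73 to 0.35). Of the relatives that passed against mOct4, Gsto1 was the one that rose.

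Gstp1, the pi-class enzyme abundant in many dividing cells, was read by 2 probes. On the brighter it was 3.18 and 3.06 in mOct4, 2.88 and 2.26 in LcPOU5F1, and 2.72 and 1.37 in LcPOU5F3. All 4 coelacanth clones were below both mOct4 clones, with wide gaps between clones. The differences against mOct4 were -0.55 ± 0.48 (adjusted p = 0.60) and -1.07 ± 0.48 (adjusted p = 0.16), and between the coelacanth groups 0.52 ± 0.48 (adjusted p = 0.45). The second probe gave -0.69, -1.46 and 0.77. Mouse pi-class and mu-class genes have close copies beside them, and how far these probes separate the copies was not tested.

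Mgst1, a microsomal transferase of the endoplasmic reticulum and outer mitochondrial membrane, was the dimmest of the genes. Its kept probe read -2.57 and -3.53 in mOct4 and was not well above background on any coelacanth array. Because the probe entered the fit only through the mOct4 arrays, no test is given. It was at least 1.1-fold lower in LcPOU5F3 than in mOct4, and no ratio can be given for LcPOU5F1. The other Mgst1 probe was well above background on 1 array, mOct4 clone 1.

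Mgst3, a microsomal enzyme with peroxidase activity, was 1.32 and 1.16 in mOct4, 1.30 and 1.71 in LcPOU5F1, and 1.30 and 1.18 in LcPOU5F3 on its brighter probe. Groups overlapped except that both LcPOU5F1 clones were just above both LcPOU5F3 clones. The differences against mOct4 were 0.27 ± 0.19 (adjusted p = 0.52) and 0.0037 ± 0.19 (adjusted p = 0.99), and the second probe gave 0.28 and -0.04. The 95% interval for LcPOU5F3 ran from -0.49 to 0.49.

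**Figure D2:**
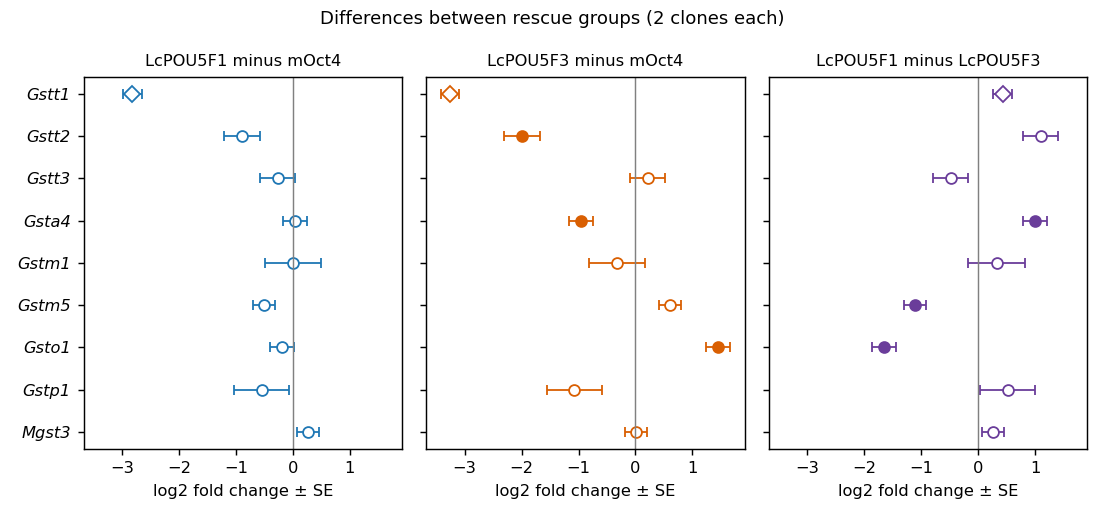
Log2 fold changes with their standard errors (x axis) for 9 of the genes in the 3 comparisons, 2 clones per group. Filled symbols had a limma adjusted p under 0.05, the diamond of Gstt1 carries no test, and Mgst1 is left out as too dim. Gsto1 lies at 1.46 in LcPOU5F3 against mOct4 and Gstt2 at -2.0, while no relative is filled in LcPOU5F1 against mOct4.

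Of the 9 relatives of Gstt1, 0 passed in LcPOU5F1 against mOct4 (limma, Benjamini-Hochberg adjusted p under 0.05), where 0.0343% of all genes did. At an unadjusted p under 0.05 there were 2 (Gstt2 and Gstm5), where 15.5% of all genes passed. Against mOct4 in LcPOU5F3, 3 passed, Gsto1 higher and Gstt2 and Gsta4 lower, where 23.6% of all genes passed. Because Gstt1 chose the list in these comparisons, nothing is read from the counts. The comparison of the coelacanth groups with each other was not used for the choice. There 3 of 9 passed, Gsta4 higher in LcPOU5F1 and Gsto1 and Gstm5 lower, where 20.5% of all genes did. With 9 genes, a count of 3 is near that background. Setting Gstt1 aside, all 4 coelacanth clones lay below both mOct4 clones in 2 of the 9 relatives (Gstt2 and Gstp1), where 13.4% of all genes had that pattern, and above them in 0, where 15.1% had the reverse. Nothing is read from these counts either.

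Median log2 fold changes of the relatives were -0.27 in LcPOU5F1 and -0.32 in LcPOU5F3 against mOct4, and -0.23 and -0.16 over the 8 without Mgst1. Over all genes these medians were 0.10 and -0.09. For LcPOU5F1 minus LcPOU5F3 the median was 0.33 over the 9 and 0.30 over the 8, beside 0.21 over all genes. The calls against mOct4 depended on both mOct4 clones. Without clone 1, or without clone 2, which is also the fit within slide 1, no relative kept its call in LcPOU5F3 against mOct4. Calls over all genes also became far fewer in these fits. For Gstt2, Gsta4 and Gsto1 the differences without clone 2 were -2.31, -1.0 and 1.56, and without clone 1 they were -1.69, -0.93 and 1.35. For the coelacanth groups set against each other, no relative kept its call when any single mOct4 or LcPOU5F1 clone was left out. Over all genes such calls became fewer too. In such fits the lone clone of a group is assumed to vary like the others. Without LcPOU5F3 clone 1 the differences of Gstm1 and Gstp1 in LcPOU5F3 against mOct4 were -1.08 and -1.75. Without LcPOU5F3 clone 2 they were 0.44 and -0.40. Calls over all genes rose without LcPOU5F3 clone 1 and became fewer without LcPOU5F3 clone 2, in both comparisons that use this group.

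The clones of LcPOU5F3 differed from each other in several of these genes. Clone 1 was higher than clone 2 in 9 of the 10, beside 56% of all genes, with Gsto1 the exception (-0.49). Mgst1, with the widest gap (1.95), was not well above background on any coelacanth array, nor Gstt1 in LcPOU5F3 clone 1. Both dim genes enter the counts and medians over the 10. The gaps on the log2 scale were 1.52 for Gstm1, 1.35 for Gstp1, 0.65 for Gstt2, 0.46 for Gsta4 and 0.08 for Gstt1. Among the 15 further transferases and related enzymes tested, clone 1 was higher in 12 and clone 2 in 3, with a median gap of 0.46 and a range from -0.30 for Gstk1 to 1.32 for Gstm6, both named after their values were seen. In mOct4, clone 1 was also higher in 9 of 10 (54.1% of all genes), but with a median absolute gap of 0.19, against 0.48 in LcPOU5F3. In LcPOU5F1 the first clone was higher in 4 of 10, with a median absolute gap of 0.22. Clone 2 of LcPOU5F3 had 54.1% of its spots well above background and clone 1 44.3%, and the part of signal quality in these gaps was not tested.

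The theta genes lie together on chromosome 10 in the order Gstt3, Gstt1, Gstt4 and Gstt2, and the 5 nearest protein-coding genes on each side were examined. Gstt4 and Ggt5 did not pass the filter, which left 9 flanking genes. In LcPOU5F1 against mOct4 none of the 9 passed limma's test, where 0.0343% of all genes did. Their log2 fold changes ran from -0.51 for Ggt1 to 0.85 for Derl3. The adjoining genes Ddt, a tautomerase related to Mif, and Mif, a cytokine, gave 0.20 ± 0.23 and -0.11 ± 0.15. Gstt1 stood at -2.82 in that comparison, the value that chose the list, so nothing is read from its place among them. Ggt1, which cleaves extracellular glutathione, entered the fit only through the mOct4 arrays and is left out of the next counts. In LcPOU5F3 against mOct4, 2 of the other 8 fell and none rose, where 11.8% of all genes fell. Chchd10, a mitochondrial protein, fell by 1.76 on the log2 scale (SE 0.30, adjusted p = 0.019) and Mif by 0.81 (SE 0.15, adjusted p = 0.021), and the dim Ggt1 was at least 2.63-fold lower. All 8 had a log2 fold change below 0 in that comparison, where the median of all genes was also below 0 (-0.09), and nothing is read from that count. Those that did not pass ran from -1.17 for Susd2 to -0.25 for Cabin1. Compared with LcPOU5F3, 5 of the 8 were higher in LcPOU5F1, namely the 5 genes beyond Gstt2 from Mif to Chchd10, where 10.5% of all genes were higher and 9.98% lower. Smarcb1 was closest to the threshold (0.59, limma adjusted p = 0.046). Median centring took the calls higher in LcPOU5F1 over all genes from 1531 to 502, and these 5 were not followed under it.

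**Figure D3:**
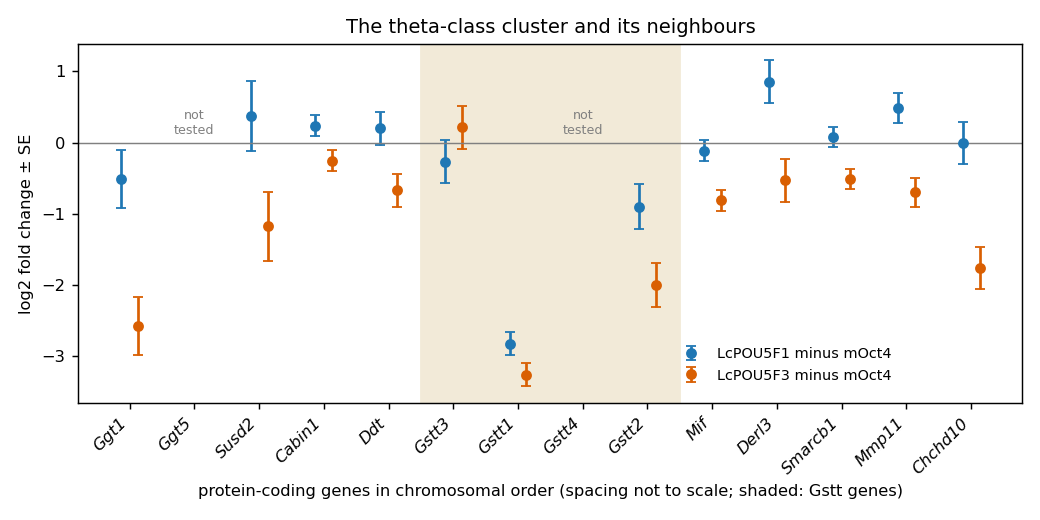
Log2 fold change with its standard error (y axis) of the theta genes (shaded) and the 5 nearest protein-coding genes on each side, in chromosomal order and not to scale; blue LcPOU5F1 minus mOct4, orange LcPOU5F3 minus mOct4. Gstt1 lies at -2.82 and -3.26, and the blue flanking points lie between -0.51 and 0.85. The fitted value of Ggt1 in orange rests on arrays not well above background.

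The genes whose centred profiles over the 6 arrays were nearest to that of Gstt1 were found by Euclidean distance among 13964 ranked genes, whose median distance was 3.62 on the log2 scale. They were Bdh2 at 0.71, Clnk at 0.79, Unc5a at 0.81, Mfap4 at 1.01 and Magel2 at 1.04. Bdh2, a cytosolic hydroxybutyrate dehydrogenase, was the one of these 5 well above background on all 6 arrays. Its levels were 3.58 and 3.39 in mOct4, 0.98 and 1.51 in LcPOU5F1, and 0.53 and 0.15 in LcPOU5F3. The other 4 were not well above background on any coelacanth array, except Mfap4 in LcPOU5F3 clone 2. They passed the filter only through the mOct4 arrays, so their distances rest on dim coelacanth signals. Among the relatives Gstt2 came nearest (2.03) and Gsto1 was the farthest (4.75). Their ranks were 189 and 13413 over all 14595 tested genes, with genes named Gm, LOC or Rik included.

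Further glutathione transferases and related enzymes were counted on 20 genes, of which 15 passed the filter. In LcPOU5F1 against mOct4 0 of 15 passed the test, and 1 had an unadjusted p under 0.05, where 0.0343% and 15.5% of all genes did. In LcPOU5F3, 1 rose and 2 fell, near the 23.6% of all genes that passed. Gsta3, an alpha-class enzyme, fell 3.78-fold (-1.92 ± 0.23, adjusted p = 0.0099), with clones at -1.71 and -2.13 against -0.17 and 0.17 in mOct4. Its second probe gave -1.18, and 1.17 for LcPOU5F1 minus LcPOU5F3. Neither passed limma's test with every kept probe in the fit (adjusted p = 0.094 and 0.099). Gstp3 of the pi class fell 4.53-fold (-2.18 ± 0.33, adjusted p = 0.015). Gstk1, the kappa-class enzyme of mitochondria and peroxisomes, rose 2.08-fold (1.06 ± 0.26, adjusted p = 0.044, but 0.064 with every kept probe in the limma fit). Set against LcPOU5F3, Gsta3 and Gstp3 were higher and Gstz1, which takes part in tyrosine breakdown, was lower in LcPOU5F1 (-0.66 ± 0.13, adjusted p = 0.031, but 0.057 with every kept probe in the limma fit). The median of the 15 was -0.23 in LcPOU5F1 and -0.27 in LcPOU5F3 against mOct4.

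Glutathione synthesis and recycling was followed on 19 of 21 listed genes. None passed in LcPOU5F1 against mOct4, with 6 at an unadjusted p under 0.05, where 0.0343% and 15.5% of all genes did. In LcPOU5F3, 4 fell and 0 rose, or 3 of 17 without genes kept through 1 group alone (Ggt1 among them), which is near or below the 23.6% of all genes that passed. Gclm, the modifier subunit of glutamate-cysteine ligase, fell 1.58-fold (-0.66 ± 0.15, adjusted p = 0.035), whereas its catalytic partner Gclc gave -0.11 ± 0.16 (adjusted p = 0.67). The call of Gclm is close to the threshold: with every kept probe in the limma fit its adjusted p was 0.061. Chac1, which degrades glutathione, fell 7.88-fold (-2.98 ± 0.67, adjusted p = 0.035), with clones at 2.56 and 0.62 against 4.77 and 4.36 in mOct4. Lap3, a leucine aminopeptidase, fell 2.19-fold, and Ggt1 is given above. Between the coelacanth groups Lap3 and Gclm were higher in LcPOU5F1, and Cbs and Cth, which make cysteine from homocysteine, were lower by 1.94-fold and 9.75-fold. For Cth the LcPOU5F1 clones stood at 1.26 and -0.64, against 3.35 and 3.85 in LcPOU5F3.

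Among other enzymes that use glutathione and exporters of its conjugates, 20 of 21 genes were tested. In LcPOU5F1 against mOct4 0 passed (4 at an unadjusted p under 0.05), where 0.0343% (15.5%) of all genes did. In LcPOU5F3, 3 rose and 2 fell, a count near the 23.6% of all genes that passed. The glutathione peroxidase family was split: Gpx8, of the endoplasmic reticulum, rose 5.97-fold (2.58 ± 0.21, adjusted p = 0.0058) and the secreted Gpx3 rose 3.22-fold (1.69 ± 0.25, adjusted p = 0.015), while Gpx4, which reduces lipid hydroperoxides, fell 1.87-fold (-0.91 ± 0.18, adjusted p = 0.028). The exporter Abcc4 fell 3.51-fold and Esd, a hydrolase of formylglutathione, rose 1.64-fold. Abcc4 and Adh5, the dehydrogenase acting on hydroxymethylglutathione, were higher in LcPOU5F1 than in LcPOU5F3, and Gpx8 and Gpx3 were lower. The calls of Esd and Adh5 are close to the threshold, with an adjusted p of 0.053 for each with every kept probe in the limma fit.

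NRF2, its regulators and its targets were followed on 24 of 25 genes. In LcPOU5F1 against mOct4 0 passed the test (5 at an unadjusted p under 0.05), where 0.0343% (15.5%) of all genes did. In LcPOU5F3, 5 rose and 1 fell, again near that 23.6% in all, with 11.8% of all genes in each direction. Mafk, a small MAF partner, rose 3.28-fold (1.71 ± 0.19, adjusted p = 0.0084), Ephx1, the microsomal epoxide hydrolase, 3.54-fold, Me1, malic enzyme, 2.71-fold, Keap1 1.99-fold and Sqstm1, an autophagy receptor, 1.89-fold. The rise of Ephx1 is that of its brighter probe. Its second probe, well above background on all 6 arrays, gave only 0.36 in LcPOU5F3 against mOct4. With every kept probe in the limma fit, the second probe did not pass (adjusted p = 0.29), whereas the brighter one did (adjusted p = 0.032). The gene that fell was Sod2, the mitochondrial superoxide dismutase, by 1.79-fold. Nfe2l2 itself gave -0.0086 ± 0.16 in LcPOU5F1 and -0.42 ± 0.16 in LcPOU5F3 (adjusted p = 0.98 and 0.12). The well-known targets Nqo1 and Hmox1 did not pass either: Nqo1 gave 0.54 ± 0.21 and 0.39 ± 0.21 (adjusted p = 0.32 and 0.23), and Hmox1 gave -0.31 ± 0.20 and 0.48 ± 0.20 (adjusted p = 0.49 and 0.15). Sod2 and Sod1 were higher in LcPOU5F1 than in LcPOU5F3, and Mafk, Sqstm1 and Me1 were lower. With every kept probe in the limma fit, Sod1 and Me1 did not pass there (adjusted p = 0.078 and 0.066).

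**Figure D4:**
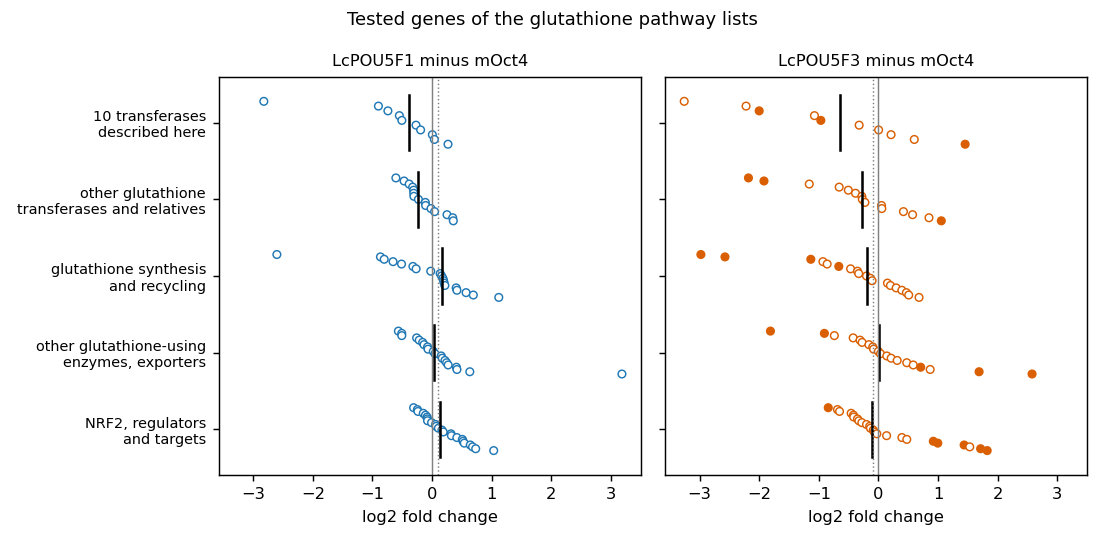
Fitted log2 fold changes (x axis) of the tested genes of 5 lists, 1 point a gene, for LcPOU5F1 minus mOct4 and LcPOU5F3 minus mOct4. Filled points passed limma's test after adjustment (Gstt1 carries none), black bars are list medians and the dotted line is the median of all genes (0.10 and -0.09). The bar of the first list includes Gstt1, whose values chose the list, and lies at -0.39 and -0.64. Over the 9 relatives the medians were -0.27 and -0.32. Mgst1 and Ggt1, the latter filled in the second panel, were kept only through the mOct4 arrays. No point is filled in the first panel, where 0.0343% of all genes passed, while Gpx8 at 2.58 is the highest filled point of the second.

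In both comparisons with mOct4 the same 2 control clones were used, so the coelacanth values of one gene are not independent of each other. Over the 9 relatives, the 15 further transferases and the genes of the other 3 lists, none passed limma's adjusted test in LcPOU5F1 against mOct4. Only 0.0343% of all genes passed there, so nothing is read from that count.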

How the data were processed

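Each of the 6 samples was hybridised to a 1-colour Agilent array. Per the file headers, spot intensity was read by the authors in Agilent Feature Extraction 11.0.1.1 under its protocol GE1_1100_Jul11, with mm9 given as the mouse build of the design. The deposited processed intensity is linear, background-subtracted and not scaled between arrays, and the deposited series matrix holds the same intensity values, rounded.

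The log2 of each intensity was taken relative to the array's 75th percentile over non-control spots. Control and outlier spots were dropped and replicate spots averaged. A probe stayed in if both arrays of some group read it well above background. RefSeq accessions gave 27656 probes 1 symbol and left 28025 unnamed. The brightest probe per gene was used (14595 genes). Means of the 3 groups were estimated from the 6 arrays in one limma model (version 3.58.1, R 4.3.3, 3 residual degrees of freedom, 5.16 after moderation), with Benjamini-Hochberg adjustment over all genes and calls under 0.05. These steps were tested on simulated data.

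A gene not well above background in a group is given as "at least N-fold", where each dim array counts at its detection floor (its lowest signal well above background) or at the probe's signal if that is larger. The number of arrays limits the precision.

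The members and lists were chosen with earlier results of these data known. All 10 members are named, with up to 4 called genes per list and direction by smallest p, 6 NRF2-related genes (Nfe2l2, Keap1, Gclc, Gclm, Nqo1, Hmox1), 5 neighbours on each side of the theta genes and the 5 nearest profiles, genes named Gm, LOC or Rik left out. Other genes named are said where they appear. Clone numbers 1 and 2 occur in both mOct4 and LcPOU5F3, but nothing in the labels pairs them.

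Alternatives were quantile normalization, median centring, normexp (offset 50) on the median signal, no filter, a stricter filter, a common floor, every probe, the mean of a gene's probes, only the 4 arrays compared, the series matrix, a slide block, a replicate block by clone number, and leaving out each array.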

Additional observations from a re-analysis of the deposited data

Results flagged for a closer look

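The effects of the coelacanth proteins against mOct4 differed from each other in 3 relatives by limma's test of that difference after Benjamini-Hochberg adjustment, LcPOU5F1 minus LcPOU5F3 on the log2 scale. The difference was 1.00 for Gsta4 (adjusted p = 0.033), -1.11 for Gstm5 (adjusted p = 0.023) and -1.65 for Gsto1 (adjusted p = 0.012). The mOct4 clones cancel in each of these differences, but they enter the spread behind each adjusted p. In the fit of only the 4 arrays compared, no relative passed. With median centring the difference of Gsta4 was 0.60 and did not pass.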

How the results depend on the processing

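Of 10 genes in 3 comparisons, the recomputed log2 fold changes changed sign in 24 cases, lost a call in 42 and gained one in 13, while 429 stayed on their side. No called difference reversed, and the causes were not tested. For Gstt1, LcPOU5F1 minus mOct4 was -3.02 with quantile normalization, -3.19 with median centring and -1.98 with normexp. LcPOU5F3 minus mOct4 was -2.30 with normexp. LcPOU5F1 minus LcPOU5F3 was 0.15 with quantile normalization and 0.027 with median centring.

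The 0 relatives called in LcPOU5F1 against mOct4 stayed 0 under 17 alternatives. In LcPOU5F3 against mOct4 the 3 became 0 with the slide as a block. With 1 clone left out the count moved both ways, as calls over all genes did. With the replicate block over 4 arrays, which assumes that same-numbered clones are paired, it was 0 of 9, as for all genes. The deviations of same-numbered clones correlated at -0.10, and the labels state no pairing, so the block is given here only. Between the coelacanth groups the 3 became 1 with no filter on dim probes, 0 with only the 4 arrays compared, 0 with the slide as a block, and 0 to 7 with 1 clone left out (6 without Mgst1).

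Signs changed in uncalled differences only. In LcPOU5F1 against mOct4 Gsta4 became -0.083 (quantile), -0.33 (median centring) and -0.021 (normexp), with -0.083 to 0.16 over clones left out. Gstm1 became -0.074, -0.37 and -0.052 under the same settings, -0.067 with the mean of its probes, -0.0013 with the series matrix and -0.058 with the slide as a block (-0.095 to 0.10 over clones left out). Mgst3 became -0.10 with median centring, and Gstt3 ran from -0.65 to 0.11 over clones left out. In LcPOU5F3 against mOct4 Mgst3 became -0.014 (quantile), -0.018 (mean of its probes) and -0.078 (slide as a block), with -0.078 to 0.086 over clones left out, and Gstm1 ran from -1.08 to 0.44. Between the coelacanth groups median centring gave -0.080 for Gstm1 and -0.14 for Mgst3, and over clones left out Gstm1 ran from -0.43 to 1.09 and Gstp1 from -0.15 to 1.2.

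Genes called over the whole array were 5 in LcPOU5F1 against mOct4 (0 to 750 under the alternatives), 3438 in LcPOU5F3 against mOct4 (0 to 5109) and 2987 between the coelacanth groups (487 to 5920). Of the calls between the coelacanth groups 51.3% were higher in LcPOU5F1, but 39.9% with quantile normalization and 21.3% with median centring. In LcPOU5F1 against mOct4 the share higher was 40% of 5 calls, but 6.67% of 105 with quantile normalization and 6.27% of 750 with median centring. Dim signal limits Mgst1 in all groups and Gstt1 in LcPOU5F3.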

Other observations

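Slc9b2, a sodium-proton exchanger that lies directly beside Bdh2 in RefSeq, was singled out after its values were seen. It ranked 11 by distance to the Gstt1 profile (1.13) among the 13964 ranked genes. Slc9b2 stood at 0.84 and 0.81 in mOct4, at -2.21 and -1.89 in LcPOU5F1 and at -1.94 and -1.29 in LcPOU5F3, well above background on all 6 arrays. Its log2 fold changes against mOct4 were -2.87 in LcPOU5F1 and -2.43 in LcPOU5F3, given without a test because it was found by the same values.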
